A study of Caenorhabditis elegans with 2 samples.

Results

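The 81 nuclear protein-coding genes of the Ensembl WBcel235 annotation whose names are rpl-, rps- or rla- plus a number, of 19973 nuclear protein-coding genes in all, were examined for binding of BLMP-1 in whole Caenorhabditis elegans. They comprised 47 rpl genes for proteins of the large ribosomal subunit, 31 rps genes for proteins of the small subunit and 3 rla genes for proteins of the stalk. The products in RefSeq contained the word ribosomal for 77 of the 81. The 4 others were rpl-24.2, a putative ribosome biogenesis protein RLP24, rps-10, rps-30, and rpl-42, whose product there is a NAM-associated domain-containing protein and which was kept only because of its name. The rule uses only the name, but the set was proposed with earlier results of these data known.

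Binding had been mapped by chromatin immunoprecipitation and sequencing (ChIP-seq), in which DNA bound by a protein is enriched and sequenced and sites of enrichment are called as peaks. The animals were hermaphrodites at the L2 larval stage of strain OP109, unc-119(ed3) III; wgIs109, a stable transgenic line in which BLMP-1 carries a GFP-FLAG tag at its C terminus. The data were 2 biological replicates of this 1 group, numbered 2 and 3, with no other genotype, stage or untagged strain to set against them. The tagged protein came from a transgene, and the material was whole animals, so a site bound in a few cells and a site bound weakly in all of them cannot be told apart. The thresholded list held 3060 peaks, 3031 of them on nuclear chromosomes with a median signal of 44.3 and a lowest signal of 27.1, and the relaxed lists, which hold peaks together with background, had 19523 nuclear peaks for replicate 2, 25112 for replicate 3 and 29970 for the pooled replicates. No read counts were used, so the depth is unknown. Every signal is the value the authors' peak caller gave, on a scale not given in the sources used here, and ranks count nuclear peaks from the strongest in 1 list.

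Cytosolic ribosomes translate the messenger RNAs of the nuclear genome. Each is built from ribosomal RNA and one copy of most ribosomal proteins, with P1 and P2 in more copies on the stalk that recruits elongation factors, and growing cells make the proteins in large and balanced amounts. BLMP-1 is a zinc finger protein related to mammalian PRDM1 (Blimp-1) and is known in worm larvae for its part in the timing of development and in the epidermis.

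The DNA under the strongest summits is shown for the 8 leading members, since these are the places where the signal at ribosomal protein genes was highest. Each run is 101 bases of the RefSeq genome sequence (WBcel235, the same assembly as ce11), 50 on each side of the summit, read 5′ to 3′ on the strand of the gene. Capitals mark matches, on either strand, to the words GCGAGACC, AACGAGTG, ATACTCAG and TACGGTAA, which were picked after the sequences had been scanned and are described further on. The windows are chrIII:3867522-3867622 (+) for rpl-3, chrIV:4750012-4750112 (-) for rpl-20, chrIV:654869-654969 (-) for rpl-15, chrIII:7854632-7854732 (+) for rpl-35, chrIV:13240634-13240734 (-) for rpl-12, chrIII:4475610-4475710 (+) for rps-1, chrII:11097497-11097597 (-) for rpl-36.A and chrIII:5679077-5679177 (+) for rps-12.
rpl-3: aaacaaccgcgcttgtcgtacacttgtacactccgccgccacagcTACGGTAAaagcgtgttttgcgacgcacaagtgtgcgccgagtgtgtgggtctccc
rpl-20: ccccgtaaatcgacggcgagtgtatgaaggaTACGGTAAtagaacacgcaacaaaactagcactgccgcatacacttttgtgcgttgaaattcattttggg
rpl-15: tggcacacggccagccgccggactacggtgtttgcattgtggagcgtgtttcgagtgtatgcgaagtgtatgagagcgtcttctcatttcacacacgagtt
rpl-35: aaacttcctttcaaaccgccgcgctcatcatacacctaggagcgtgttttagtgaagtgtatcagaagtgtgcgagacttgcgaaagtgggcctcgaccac
rpl-12: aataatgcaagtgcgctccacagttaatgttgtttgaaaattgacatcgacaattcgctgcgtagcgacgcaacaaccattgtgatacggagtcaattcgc
rps-1: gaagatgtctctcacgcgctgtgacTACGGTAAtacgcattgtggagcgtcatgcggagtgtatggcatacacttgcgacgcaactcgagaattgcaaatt
rpl-36.A: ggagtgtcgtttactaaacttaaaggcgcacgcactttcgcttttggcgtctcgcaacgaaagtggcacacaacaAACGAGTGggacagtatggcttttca
rps-12: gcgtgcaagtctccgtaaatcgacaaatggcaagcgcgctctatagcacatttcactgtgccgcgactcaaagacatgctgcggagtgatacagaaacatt
All 8 centres lay upstream of the annotated starts of their genes, and 4 of the 8 windows held none of the 4 words.

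Of the 11 distinct summit windows that held at least 2 of the 4 words, 6 are shown as examples. They are chrX:2242948-2243048 (-) for rpl-11.2, chrIV:12391286-12391386 (-) for rps-23, chrIII:6375136-6375236 (-) for rps-13, chrIII:7208057-7208157 (+) for rpl-6, chrV:7776271-7776371 (-) for rpl-39 and chrIV:13881894-13881994 (+) for rpl-29.
rpl-11.2: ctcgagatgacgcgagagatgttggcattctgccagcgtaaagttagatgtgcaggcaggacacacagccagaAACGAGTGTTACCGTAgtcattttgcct
rps-23: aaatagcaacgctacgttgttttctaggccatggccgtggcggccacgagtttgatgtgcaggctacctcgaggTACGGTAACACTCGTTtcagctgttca
rps-13: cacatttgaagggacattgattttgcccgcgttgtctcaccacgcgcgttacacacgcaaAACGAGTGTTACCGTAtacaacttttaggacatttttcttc
rpl-6: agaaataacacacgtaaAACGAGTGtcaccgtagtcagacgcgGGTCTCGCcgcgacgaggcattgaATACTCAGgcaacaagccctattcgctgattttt
rpl-39: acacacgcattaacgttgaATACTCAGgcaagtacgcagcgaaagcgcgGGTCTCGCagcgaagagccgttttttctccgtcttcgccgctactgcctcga
rpl-29: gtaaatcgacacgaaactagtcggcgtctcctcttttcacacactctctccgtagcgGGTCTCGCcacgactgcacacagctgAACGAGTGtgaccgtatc
In rpl-11.2, rps-23 and rps-13 the capitals form 1 unbroken run, in which AACGAGTG and the reverse complement of TACGGTAA lie end to end, read on the other strand in rps-23. The windows of rpl-6, rpl-39 and rpl-29 each held GGTCTCGC, the reverse complement of GCGAGACC.

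Most ribosomal protein genes had a BLMP-1 summit in their promoter window, defined as 1000 bp upstream to 200 bp downstream of any annotated transcript start. The thresholded list placed a summit there for 56 of the 81 ribosomal protein genes, or 69.1%, against 8.85% of all protein-coding genes (1767 of 19973). The large subunit had 32 of 47 genes with a summit (68.1%) and the small subunit 24 of 31 (77.4%). None of the 3 stalk genes, rla-0, rla-1 and rla-2, had one. Without ribosomal protein genes, the share over all remaining genes was 8.60% (1711 of 19892). No test was made of these shares, because the set was chosen with those results in view, and the counts are given as a description.

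**Figure D1:**
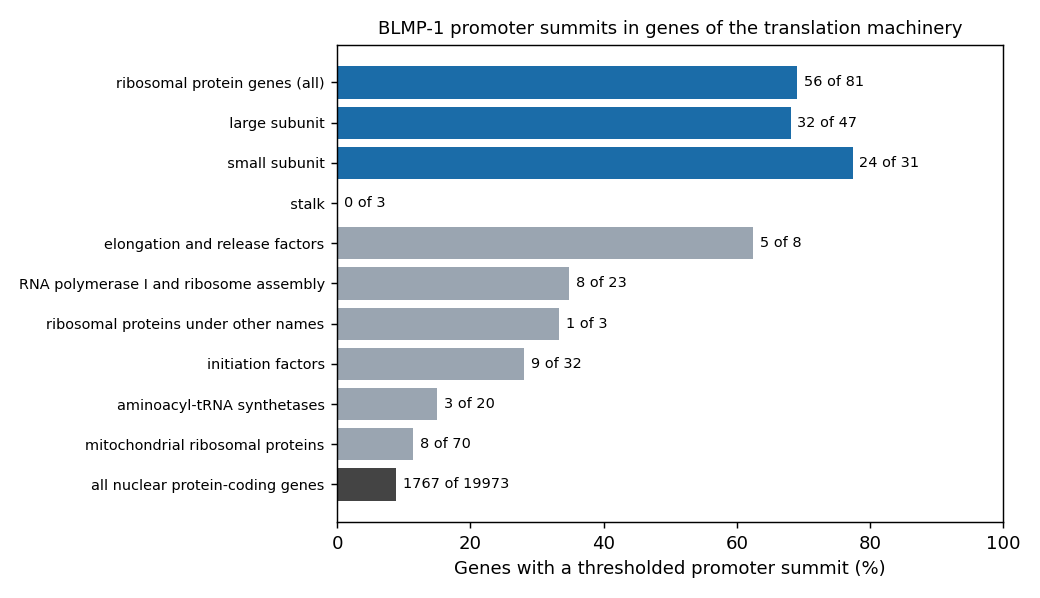
Percent of genes with a thresholded BLMP-1 summit in the promoter window, for ribosomal protein genes and their subunits (blue), other translation gene lists and all protein-coding genes; each bar is 1 list, with its count of genes. The bar of all ribosomal protein genes reaches 69.1%, that of all protein-coding genes 8.85%, and the stalk has no bar.

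Each relaxed list held a promoter summit for nearly all members. In replicate 2 it was 75 of 81 ribosomal protein genes (92.6%) against 32.5% of all genes, and in replicate 3 it was again 75 of 81 against 37.9% of all genes. Both replicates had one for 73 members (90.1%), against 24.1% of all genes. The pooled relaxed list had one for 75 members (92.6%) against 40.8% of all genes. With only the 3060 strongest peaks of each replicate, both replicates had a summit at 49 members (60.5%), against 5.95% of all genes.

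Among the members with a summit, rpl-3 stood first. It encodes uL3, a large subunit protein that reaches towards the peptidyl transferase centre, and its summit had a signal of 317 and rank 21 in the thresholded list. In the replicates' own lists the rpl-3 summit had a signal of 145 and rank 19 in replicate 2, and 189 and rank 18 in replicate 3. It lay 282 bp upstream of the start and in no other gene's window. So rpl-3 was among the leading peaks of the whole list in both replicates, while the next member had rank 51 in the thresholded list.

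Large subunit genes filled the next 4 places. The summit of rpl-20, for eL20, had a signal of 208 (rank 51) in the thresholded list, 87.1 (rank 51) in replicate 2 and 121 (rank 49) in replicate 3, and lay 284 bp upstream of the start. For rpl-15, which encodes eL15, the signal was 183 (rank 71) in the thresholded list, with 99.1 (rank 39) in replicate 2 and 86.6 (rank 139) in replicate 3, at 343 bp upstream. The summit of rpl-35, for uL29 at the exit of the peptide tunnel, had a signal of 169 (rank 88) in the thresholded list, 62.7 (rank 122) in replicate 2 and 106 (rank 81) in replicate 3, at 452 bp upstream. The order of these genes therefore differed between the replicates: rpl-15 was above rpl-20 in replicate 2 and below it in replicate 3. For rpl-12, which encodes uL11 at the base of the stalk, the signal was 146 (rank 125) in the thresholded list, 73.3 (rank 79) in replicate 2 and 70.7 (rank 226) in replicate 3. The rpl-12 summit was the closest of all to a member's start, at 33 bp upstream.

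Most of these leading summits also lay in the window of a neighbouring gene, so the peak cannot be given to the ribosomal protein gene alone. The rpl-20 summit was shared with Y17G9B.5, the rpl-15 summit with K11H12.8 and the rpl-12 summit with lin-54, a gene of the DREAM complex that represses cell cycle and germline genes. The summits of rpl-3 and rpl-35 were shared with no other protein-coding gene.

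Small subunit genes made up most of the remaining places among the leading 13, a number that exceeds 12 only because a pair shares 1 peak. The rps-1 summit, at the gene for eS1, had a signal of 137 in the thresholded list (rank 147) and lay 258 bp upstream, with rank 104 in replicate 2 and rank 193 in replicate 3. At rps-12, for eS12, the signal was 134 (rank 158), at 171 bp upstream, with rank 212 in replicate 2 and rank 144 in replicate 3. At rps-19, for eS19, whose human counterpart is mutated in Diamond-Blackfan anaemia, it was 125 (rank 195), at 283 bp upstream, with rank 188 in replicate 2 and rank 241 in replicate 3. These 3 summits also lay in the windows of ifet-1, ska-3 and hsr-9, in that order. At rps-20, for uS10, the signal was 119 (rank 218), at 249 bp upstream and shared with ekl-4, with rank 179 in replicate 2 and rank 282 in replicate 3. The summit of rps-28, for eS28, had a signal of 97.9 (rank 336), lay 439 bp upstream and was shared with Y41D4B.4. Its place differed most between the replicates within this group, with rank 170 in replicate 2 and rank 966 in replicate 3. The large subunit gene rpl-36.A, for eL42, had a signal of 136 (rank 149) at 343 bp upstream, shared with nuo-1, with rank 125 in replicate 2 and rank 186 in replicate 3.

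The genes rpl-36 and rps-14 lie on opposite strands and shared 1 summit with a signal of 97.8 (rank 337). It lay 421 bp upstream of rpl-36 and 242 bp upstream of rps-14, was also in the window of ndab-2, and ranked 257 in replicate 2 and 487 in replicate 3. In the same way rpl-24.1 and rps-10 shared a summit with a signal of 46.6, and rpl-39 and rps-30 shared one with a signal of 55.8. Because of these 3 shared summits, the 56 members rested on 53 distinct summits.

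The 43 other members with a summit had signals between 27.7, at rpl-7, and 93.4, at rpl-43. A signal of 100 or more was found at 10 members, 50 to 100 at 21 and under 50 at 25. The 10 members at 100 or more were 17.9% of the members with a summit, against 8.71% (149) of other genes with a summit. The median signal was 55.0 at ribosomal protein genes (interquartile range 40.4 to 91.5, 56 genes) and 43.9 at other genes with a summit (33.5 to 63.8, 1711 genes). Of the 1530 strongest peaks, 39 members (69.6% of the 56) and 835 other genes (48.8% of the 1711) had one. By subunit, the median was 56.9 for the large subunit and 50.4 for the small subunit, with ranges that overlapped, 27.7 to 317 against 29.0 to 137.

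**Figure D2:**
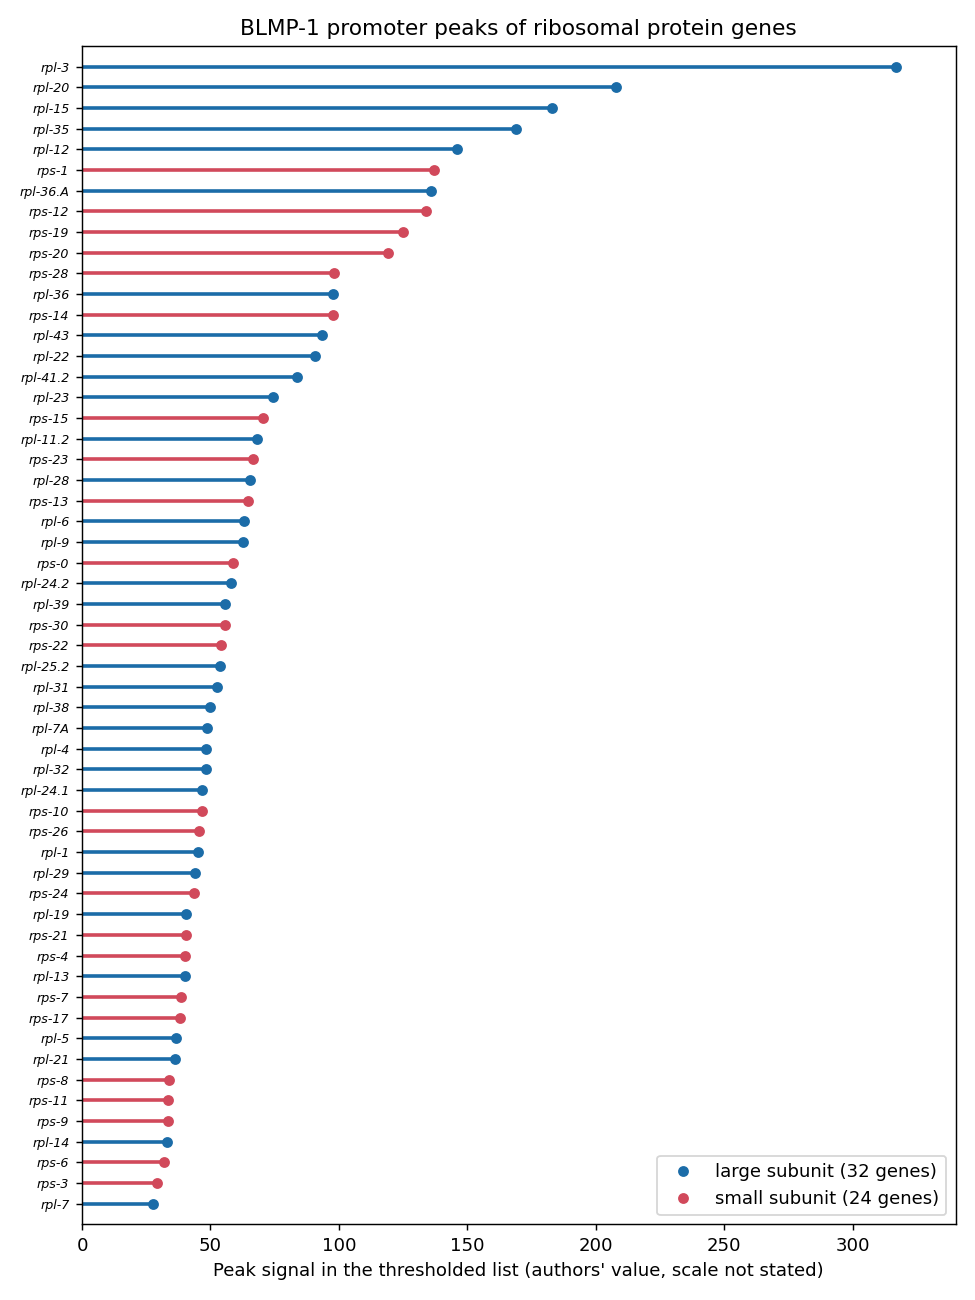
Signal of the thresholded BLMP-1 summit (authors' value, scale not stated) at each of the 56 ribosomal protein genes that had one, in order of signal, with large subunit genes in blue and small subunit genes in red. The highest point is rpl-3 at 317 and the lowest is rpl-7 at 27.7.

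Sharing a summit with another protein-coding gene was common. Of the members with a summit, 38 (67.9%) shared it with another gene, against 37.8% (647) of other genes with a summit. The median signal was 60.8 at the 38 members that shared a summit and 42.1 at the 18 that did not, while other genes had 42.4 when shared and 44.9 when not. The higher median of ribosomal protein genes thus lay in the shared summits, and the 18 unshared ones had a median below that of other genes. No member had more than 1 promoter summit. Of all 1767 genes with a summit 97 had 2 or more, which is also a small share, so the lack of such members is not a trait of the set. No member had a thresholded summit inside the gene but outside the promoter window. The same count was not made for all genes, and many members are short genes, so it cannot be read as a trait of the members.

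Many members had a close neighbour upstream. The nearest gene upstream, or a gene that overlapped the start, lay on the opposite strand for 55 of 81 ribosomal protein genes (67.9%), against 46.2% of all genes and 60.3% of all genes with a summit. An overlapping gene, as at rpl-24.2 and rpl-37, was given a gap of 0 bp and need not be head to head. The opposite-strand share was 69.6% for members with a summit and 64.0% for those without. The median gap to the upstream neighbour was 557 bp for ribosomal protein genes (572 bp with a summit and 527 bp without) and 936 bp for all genes. A short gap lets 1 summit fall in a pair of windows, so the counts of genes with a summit were also made with each summit given only to the gene with the nearest start. By that rule 37 members and 1424 of all genes (7.13%) had one.

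The summits lay at a similar distance from most starts. The median position was 283 bp upstream of the start for ribosomal protein genes, with an interquartile range of 95.5 bp and 10th and 90th percentiles at -394.5 and -182.5 bp. For other genes with a summit the median was 244 bp upstream and the interquartile range 357.0 bp. A band of 200 to 400 bp upstream, chosen after the positions had been seen, held the summit of 43 of the 56 members (76.8%) and of 466 of the 1711 other genes (27.2%). All 56 members had the summit upstream of the nearest annotated start, against 94.3% (1614) of the other genes. At rpl-19 that was not the outermost start, and the summit lay inside the annotated gene. The farthest was rpl-43, at 741 bp upstream, and the closest rpl-12. By subunit the medians were 285 bp upstream for the large and 272 bp upstream for the small subunit. Measured from the first base of the coding sequence, which avoids the trimming of many worm transcripts by trans-splicing, the median was -298.5 bp with an interquartile range of 89.2 bp for ribosomal protein genes and -281.0 bp with 413.0 bp for other genes.

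**Figure D3:**
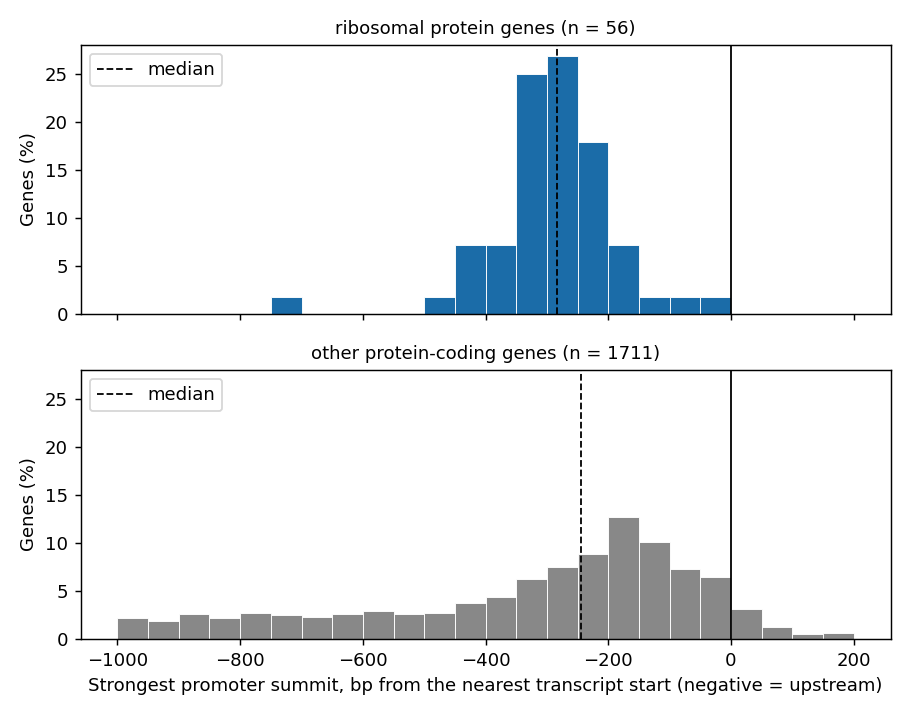
Position of the strongest thresholded summit from the transcript start (bp, negative upstream) for 56 ribosomal protein genes and 1711 other genes with a summit, as the percent of genes per bin. The ribosomal protein genes crowd between 200 and 400 bp upstream (76.8%), while the other genes spread over the window.

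The replicates placed most member peaks of the thresholded list at nearly the same base. For the 56 members with a thresholded summit, the summits of replicate 2 and replicate 3 were a median of 18.5 bp apart, within 50 bp at 53 genes and within 100 bp at 55. The exception was rps-11, for uS17, with 504 bp upstream in replicate 2 and 340 bp upstream in replicate 3. Over all members with a relaxed summit in both replicates the median distance was 23.0 bp, with 82.2% (60 of 73) within 50 bp, against 62.0 bp and 44.8% for 4731 other genes. The 17 of the 73 without a thresholded summit had a median of 70.0 bp, with 41.2% (7) within 50 bp. Each gene's strongest summit was compared, so the summits of the replicates need not be the same peak. The ranks of the 73 members had a Spearman coefficient of 0.820 between the replicates, and those of the 4731 other genes 0.654, as a description over genes, which share the 2 libraries and are not replicates. The coefficient was 0.751 for the 56 members with a thresholded summit and -0.140 for the 17 without. Members and other genes were not matched for peak strength. The median rank was 1451.0 in replicate 2 and 1758.0 in replicate 3 for ribosomal protein genes, and 4755.0 and 4958.0 in the same order for other genes.

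The 2 replicates did not place every member alike. Of the 56, 53 ranked among the 3060 strongest peaks of replicate 2, and 51 among those of replicate 3. In replicate 2 the exceptions were rps-8 (rank 6618, against 2246 in replicate 3), rpl-25.2 (3814, against 1341) and rps-4 (3151, against 1363). In replicate 3 they were rpl-7 (rank 5147, against 2290 in replicate 2), rps-9 (4278, against 2072), rps-26 (3457, against 1052), rps-3 (3366, against 2547) and rps-17 (3306, against 1190). No member with a thresholded summit was missing from either relaxed list, which follows largely from the thresholded list being derived from the relaxed ones. These counts were not made for other genes with a thresholded summit, so they do not set the members apart.

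**Figure D4:**
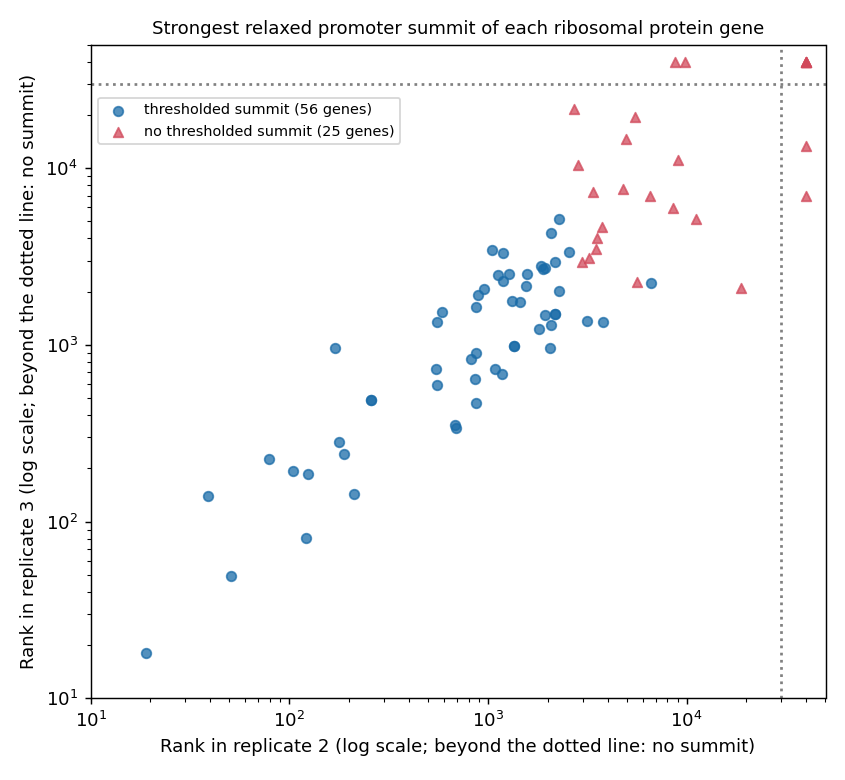
Rank of each ribosomal protein gene's strongest promoter summit in the relaxed list of replicate 2 and of replicate 3 (log axes, 1 is the strongest peak), for 56 genes with and 25 genes without a thresholded summit; points beyond the dotted lines have no summit in that replicate. The point in the lower left corner is rpl-3, at ranks 19 and 18.

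The 25 members without a thresholded summit were 15 large subunit genes, 7 small subunit genes and the 3 stalk genes. The large subunit genes were rpl-2, rpl-10, rpl-11.1, rpl-16, rpl-17, rpl-18, rpl-25.1, rpl-26, rpl-27, rpl-30, rpl-33, rpl-34, rpl-37, rpl-41.1 and rpl-42. The small subunit genes were rps-2, rps-5, rps-16, rps-18, rps-25, rps-27 and rps-29. For these genes the pooled relaxed list had a promoter summit for 19 of the 25, and the lists of both replicates had one for 17.

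Several of these lay just outside the threshold. In the pooled relaxed list rpl-33 had a signal of 27.0 (rank 3042), rps-18 had 26.9 (rank 3051) and rpl-2 had 25.5 (rank 3254), against 27.7 (rank 2950) for rpl-7 and 29.0 (rank 2790) for rps-3, the weakest members in the thresholded list. The gene rps-18, for uS13, ranked 2983 in replicate 2 and 2945 in replicate 3, so it was among the 3060 strongest peaks of both. Its summits did not coincide, at 643 bp upstream in replicate 2 and 502 bp upstream in replicate 3. The gene rpl-2, for uL2, ranked 2090 in replicate 3 but 18856 in replicate 2, with signals of 21.9 in replicate 3 and 2.10 in replicate 2. The gene rps-5, for uS7, was stronger in replicate 2, with rank 2710 and a signal of 12.3 in replicate 2 and rank 21735 and a signal of 2.56 in replicate 3.

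No summit was listed in either replicate for rla-1, rpl-25.1, rpl-37 and rpl-42. The stalk genes differed among themselves. The gene rla-0, for uL10, which anchors the stalk, ranked 8514 in replicate 2 and 5979 in replicate 3. For rla-2, which encodes the acidic protein P2, a summit was listed in replicate 3 only, at rank 13318, and rla-1, for its partner P1, had none. The genes rpl-27 (replicate 3 only, rank 7000), rpl-16 (replicate 2 only, rank 9805) and rps-16 (replicate 2 only, rank 8737) were each listed in a single replicate. A gene without a listed summit is one where the caller reported none, which does not show that BLMP-1 was absent.

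Some members without a summit stood directly downstream of another gene on the same strand. In C. elegans, closely spaced genes on a strand can form an operon, transcribed from the promoter of its first gene; which members belong to operons was not analysed here. Within 500 bp of a same-strand upstream neighbour were 3 of 56 members with a summit (5.36%) and 6 of 25 without (24.0%), against 20.6% of all genes. At 120 bp, a limit chosen after the gaps had been seen, there were 5 members, all without a summit: rla-1, rpl-16, rpl-25.1, rps-16 and rpl-27. Of the upstream neighbours of these 5, 4 had a thresholded summit in their own window. Over all 1909 genes that close to a same-strand neighbour, the neighbour had a summit for 310 (16.2%) and the gene itself for 102 (5.34%).

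The neighbour of rpl-16 is lias-1, whose summit had a signal of 66.8 (rank 735), 255 bp upstream of the lias-1 start. The neighbour of rpl-25.1 is glit-1, with a signal of 59.4 (rank 927) at 155 bp upstream. The neighbour of rps-16 is fib-1, which encodes the nucleolar protein fibrillarin, with a signal of 38.9 (rank 1843) at 72 bp upstream. The neighbour of rla-1 is Y37E3.8, with a signal of 27.6 (rank 2971) at 341 bp upstream. The neighbour of rpl-27, C53H9.2, had no summit. These summits lay more than 1000 bp upstream of the ribosomal protein gene itself, at -1752 bp for rpl-16, -3054 bp for rpl-25.1, -1754 bp for rps-16 and -1373 bp for rla-1, and so were not counted for it. Within 2000 bp on either side of the start, 7 of the 25 had a thresholded summit and 18 had none. The same count was not made over all genes, so whether 7 is many or few is not known.

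Among the 4 pairs of genes named alike with suffixes, only 1 had a summit at both genes. The genes rpl-11.1 and rpl-11.2 encode forms of uL5, which binds the 5S RNA in the large subunit. A summit with a signal of 68.2 lay 380 bp upstream of rpl-11.2, while rpl-11.1 had none in the thresholded list and ranked 5195 in the pooled relaxed list. The genes rpl-25.1 and rpl-25.2 encode forms of uL23, at the exit of the peptide tunnel. At rpl-25.2 the signal was 53.7, 176 bp upstream, and at rpl-25.1 no summit was listed in either replicate. For the pair that encodes L41, rpl-41.2 had a signal of 83.8 at 267 bp upstream and rpl-41.1 ranked 3738 in the pooled relaxed list. The rpl-41.2 summit lies 835 bp downstream of the rpl-41.1 start, so it does not fall in that window. Both rpl-24.1 (46.6) and rpl-24.2 (58.1, at 165 bp upstream) had a summit, but the products differ: rpl-24.1 encodes eL24, and rpl-24.2 a putative assembly factor by its RefSeq product.

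Other genes of translation were counted in the same way, and no difference between lists was tested. Elongation and release factors had 5 of 8 genes with one (62.5%), led by eef-1A.1, for the factor that delivers aminoacyl-tRNA, with a signal of 89.2, and eef-1B.1 with 81.8. RNA polymerase I subunits and factors of ribosome assembly had 8 of 23 (34.8%), led by pro-1 with 81.4 and lpd-7 with 62.7, whose summit is the one at rpl-9. Initiation factors had 9 of 32 (28.1%), led by iff-2, for an eIF5A protein, with 177, and eif-2Bbeta with 107. Cytosolic aminoacyl-tRNA synthetases had 3 of 20 (15.0%), led by nars-1 with 42.5 and fars-1 with 35.0. Genes for mitochondrial ribosomal proteins, which serve the ribosomes inside mitochondria, had 8 of 70 (11.4%), led by mrpl-28 with 68.5 and mrps-21 with 66.8. These shares compare with 69.1% for the cytosolic ribosomal protein genes and 8.85% for all genes. Of the leading genes named here, only pro-1 and mrpl-28 had a summit in no other gene's window, so the other peaks cannot be given to the named gene alone. The summits of eef-1B.1, fars-1 and mrps-21 lay 744, 916 and 983 bp upstream, in that order. The rpl-28 summit also lay in the window of mrpl-49, which is counted among the mitochondrial genes.

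Ribosomal proteins under other names are not members by the naming rule. Of 3 such genes, ubl-1, which encodes a ubiquitin-like protein fused to a small subunit protein, had a summit with a signal of 72.7, 216 bp upstream. The other two, ubq-2, a ubiquitin fusion with a large subunit protein, and rack-1, for a scaffold protein on the small subunit, had none in the thresholded list.

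Words noted under BLMP-1 peaks as a whole were at few summits of ribosomal protein genes. AGTGAAAG or AGCGAAAG, the core that PRDM1 binds in mammals, occurred on either strand within 50 bp of 2 of the 53 summits at ribosomal protein genes (3.77%), at rpl-36.A and at the summit of rpl-39 and rps-30, against 89 of 1462 other promoter summits (6.09%). AGACGCAG and GAGAGAGA were taken because an earlier scan of all peaks of these data had put them high. AGACGCAG occurred at 2 of 53 (3.77%) against 129 (8.82%), and GAGAGAGA at 0 of 53 against 112 (7.66%). With so few summits these shares differ by a handful of genes, and no match says only that these letters are not in the window. In the stretch from 450 to 150 bp upstream of the outermost start the order was not the same. The mammalian core was there at 4 of the 56 members with a summit (7.14%) and 0 of the 25 without, against 2.15% of all genes. AGACGCAG was there at 3 of 56 (5.36%) and 2 of 25, against 2.92% of all genes, and GAGAGAGA at 0 of 56 and 2 of 25, against 2.67%.

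A scan of all words of 8 letters under the 53 summits gave the 4 words capitalised in the printed sequences. As they were selected for being common at these summits, their shares there are a description and support nothing. GCGAGACC was in 15 of 53 windows at ribosomal protein genes (28.3%) and in 45 of 1462 other promoter summit windows (3.08%). AACGAGTG was in 10 (18.9%) against 13 (0.889%), ATACTCAG in 9 (17.0%) against 5 (0.342%), and TACGGTAA in 9 (17.0%) against 16 (1.09%). At least 1 of the 4 was in 31 of the 53 windows (58.5%) and in 73 of the 1462 others (4.99%). The windows of members held more G and C, at 50.2%, against 44.3% at other promoter summits.

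Members without a summit had not been part of that scan. In the same upstream stretch, GCGAGACC occurred at 7 of the 25 (28.0%), close to the 28.6% of the 56 members with a summit, and at 1.57% of all genes. The other words did not carry over in this way: AACGAGTG was at 1 of 25, against 23.2% of members with a summit and 0.736% of all genes, TACGGTAA at 1 of 25, against 19.6% and 1.31%, and ATACTCAG at 0 of 25, against 19.6% and 0.521%. The G and C content of this stretch was 36.6% both with and without a summit and 34.4% for all genes.

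Over the whole promoter windows, here taken from the outermost start of each gene only, the words were counted with their strand. As the words were chosen for lying near the members' summits, their shares and positions in these windows follow in part from that choice and are a description. GCGAGACC occurred in 24 of 81 ribosomal protein genes (29.6%, against 4.26% of all genes), 19 of the 24 on the strand opposite to the gene, at a median of -278.5 bp from the start. AACGAGTG occurred in 16 (19.8%, against 2.68%), 13 of the 16 on the strand of the gene, at a median of -308.0 bp. ATACTCAG was in 14 members (17.3%, against 1.88%) at a median of -273.5 bp, and TACGGTAA in 14 (17.3%, against 4.10%) at -281.0 bp.

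The unbroken run printed for rpl-11.2, rps-23 and rps-13 was within 50 bp of 5 of the 53 summits at ribosomal protein genes (9.43%), against 2 of 1462 other promoter summits (0.137%). Besides those 3 these were the summit of rpl-19 and the one that rpl-24.1 and rps-10 share. The run joins words that were chosen for being common at these same summits. Its shares, here and in the wider windows, follow in part from that choice and are a description that supports nothing. In the windows from the outermost start the run was at 9 of 81 ribosomal protein genes (11.1%) and at 16 of 19892 other genes (0.0804%). That count leaves out rpl-19, whose summit was assigned through another of its starts, and adds rpl-1, rpl-21, rpl-34 and rps-18, of which rpl-34 and rps-18 had no thresholded summit.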

How the data were processed

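The signal values, 1 per peak, were deposited by the authors as their caller gave them. Per the deposited file descriptions, a relaxed peak list was made from the alignments of either replicate, another from both together, each with a control, and the thresholded list was derived from them by the irreproducible discovery rate, a measure of agreement between replicates. At each member with a thresholded summit, the signal and rank equalled those in the pooled relaxed list. A place in the thresholded list therefore does not show on its own that both replicates ranked the peak high. The caller, aligner and cut-off are not stated in the labels or file descriptions. The labels name blmp-1 as the antibody's target. The control library and the ce10 lists were not analysed here.

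Lists on ce11, the same assembly as WBcel235, were joined to Ensembl release 115. Mitochondrial peaks were left out, and 3 summits that fell beyond their peak were moved to its end. A gene had a promoter summit where a summit lay 1000 bp upstream to 200 bp downstream of any of its transcript starts, and its strongest summit was used, with the position measured to the nearest start. Shared summits counted for each gene. Words were sought on both strands within 50 bp of the summit, and in upstream windows measured from the outermost start. The scan took the 4 words leading the order by excess over other promoter summits, dropping words that overlap a taken one by 5 or more letters. The members and lists were chosen with earlier results of these data known, so no test was made. Named genes are the 12 strongest members with ties, the genes sharing their summits, members without a thresholded summit, suffixed pairs, and up to 2 genes of each other list, in which the names vars-2 and rrbs-1 found no gene. Genes named as exceptions between replicates or as holding words were chosen after their values were seen. The assignment was tested on simulated summits with the outermost start of each gene only, so the choice among several starts was not covered. Alternatives were other windows and starts, nearest genes, stronger peaks, single replicates and other flanks. Python 3.11.15, NumPy 2.4.6, pandas 2.3.3 and matplotlib 3.10.9 were used.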

Additional observations from a re-analysis of the deposited data

How the results depend on the processing

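The count of 56 ribosomal protein genes with a promoter summit was 55 with 500 bp upstream, 60 with 2000 bp, 55 with outermost starts, 56 with any base of the peak and 39 with the stronger 1530 peaks. With the 3060 strongest pooled relaxed peaks in place of the thresholded list, it was again 56, and 1767 of all genes. Members with a thresholded summit had the same signals and ranks in both lists, so this was not a separate check. The count of 56 was varied in other ways too. It moved to 37 members when each summit went only to the gene with the nearest start, since a shared summit then counts once. Leaving out a replicate gave 54 to 56 members and median positions of -290.5 to -286.0 bp, against -283.0 bp. From the coding start the median position was -298.5 bp. The median signal of 55.0 moved to 42.1 for summits in 1 window only; the cause was not tested. Members with summits in both relaxed lists numbered 49 rather than 73 with the 3060 strongest peaks of each replicate and 69 with 500 bp upstream. The mammalian core was within 25 bp of 2 summits and within 100 bp of 3. No paired analysis was possible because there is 1 group. Without read counts, depth is unknown and limits what a missing weak summit shows.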

Other observations

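Ribosomal protein genes with a summit were found on every nuclear chromosome. The share was 83.3% on chromosome III (15 of 18 members, against 12.7% of all genes there), 76.0% on chromosome I (19 of 25, against 10.3%), 61.1% on chromosome IV (11 of 18, against 7.44%) and 60.0% on chromosome II (6 of 10, against 8.23%). Chromosomes V (4 of 8, against 6.29%) and X (1 of 2, against 10.7%) held few members. Of the 53 peaks at ribosomal protein genes, 26 (49.1%) had the most common width of the list, 336 bp, against 1053 of 1462 other promoter peaks (72.0%).

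The scan words differed in how they were spread over strong and weak summits, a split examined after the words had been seen and resting on small counts. GCGAGACC was at 5 of the 36 member summits among the 1530 strongest peaks (13.9%) and at 10 of the 17 weaker ones (58.8%). ATACTCAG had 8 of 36 (22.2%) against 1 of 17 (5.88%). For AACGAGTG the shares were 19.4% and 17.6%, and for TACGGTAA 19.4% and 11.8%. At other promoter summits GCGAGACC was at 2.88% of the stronger and 3.26% of the weaker.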
